A study of Mus with 12 samples.

Results

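The subject here is the difference between 2 cisplatin responses, the one in kidneys of Apobec1 knockout (KO) mice and the one in kidneys of wild-type (WT) mice. For each gene the log2 response of KO kidneys is the mean of KO AKI minus the mean of KO control, the log2 response of WT kidneys is the mean of WT AKI minus the mean of WT control, and the second was subtracted from the first. This difference, the interaction of genotype and cisplatin, was computed for all 19505 named genes, each read by 1 probe set, from all 12 arrays of the series, so its members are every named gene measured. KO AKI are kidneys of Apobec1 KO mice given cisplatin at 15 mg/kg and taken 3 days later, which the labels describe as severe acute kidney injury. KO control are kidneys of Apobec1 KO mice given saline. WT AKI are kidneys of C57Bl/6j mice given the same cisplatin treatment, described as acute kidney injury, and WT control are kidneys of C57Bl/6j mice given saline. All mice were 6 month old males, with 3 arrays in each group. KO mice were homozygous, were bred in house on the C57Bl/6j background and lack the gene throughout the body, and WT mice were purchased, so genotype and the source of the mice cannot be told apart.

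Cisplatin is a platinum drug that crosslinks DNA, and the kidney takes it up into the proximal tubule, the segment behind the glomerulus that recovers most of the filtered salt, sugar and amino acids. Injured tubule cells lose their transporters and metabolic enzymes and switch on injury genes such as Havcr1 and Lcn2, p53 targets and antioxidant genes, while leukocytes enter the tissue. APOBEC1 is a cytidine deaminase best known for editing the mRNA of apolipoprotein B. An interaction asks whether these responses were of the same size in both genotypes. A response of the same sign that was larger in KO is called amplified here, one of the same sign that was smaller in KO is called damped, and responses of opposite sign are called reversed. Since the interaction is also the KO minus WT difference after cisplatin less the KO minus WT difference under saline, a gene that differed between the genotypes under saline alone can have a large interaction too.

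The signals of Apobec1 were not lower on the arrays labelled KO: they were 9.75, 7.33 and 8.48 in KO AKI, 7.58, 7.50 and 7.66 in KO control, 8.97, 8.56 and 8.38 in WT AKI and 7.18, 6.63 and 7.33 in WT control. Under saline all KO values lay above all WT values, with a KO minus WT difference of 0.54, and after cisplatin the genotypes overlapped. The paper reports that its KO mice were verified to carry the disrupted gene, through their genotype and through measured mRNA. Where on the transcript this probe set lies was not examined, so its signals do not test the knockout. KO stands here for the arrays labelled KO. The log2 difference between the 2 responses of Apobec1 was -0.65 (standard error 0.62, adjusted p = 0.766 from limma); dropping KO AKI replicate 1 gave -1.27 and dropping replicate 2 of that group gave -0.06. The KO AKI kidneys varied more than the others: arrays of KO AKI correlated with each other at r of 0.962 to 0.986, against 0.990 to 0.993 in KO control, 0.990 to 0.991 in WT AKI and 0.990 to 0.992 in WT control. KO AKI replicate 2 stood furthest from its group, and medians of gene lists are given below with and without it. Umod, the main protein of the thick ascending limb, and Lrp2, the endocytic receptor megalin of the proximal tubule, lay above background on all 12 arrays, as kidney tissue should show. Background is the 95th percentile of 23 antigenomic probe sets of the same array, and 9224 genes lay above it on all 3 arrays of at least 1 group. In whole kidneys, fewer cells of a type and less RNA per cell cannot be told apart.

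The difference between the responses passed an adjusted p of 0.05 for 6 of 19505 genes (0.0308%), 2 of them higher and 4 lower; with each array centred on its median 5 were higher and 4 lower, and after quantile normalisation 0 were higher and 2 lower. They were Lcn2, Ms4a6b, Slc12a3, Vmn1r20, Xpnpep2 and Slc22a27. Of these responses 5 were amplified in KO and that of Slc22a27 was reversed. Xpnpep2 and Slc22a27 lay above background on no array, so their differences were read within background. The number of calls depended on single arrays. Leaving out KO AKI replicate 1 gave 337 calls, leaving out KO AKI replicate 2 gave 44 and leaving out KO AKI replicate 3 gave 1. No call was left when any 1 of the 3 KO control arrays was dropped, nor when WT AKI replicate 2 or 3 or WT control replicate 1 or 3 was. Dropping WT AKI replicate 1 gave 11 calls and dropping WT control replicate 2 gave 4. Each of the 6 genes kept an adjusted p under 0.05 in 3 or 4 of the 12 fits that left out 1 array, and none of them changed its sign. By comparison, the response of KO kidneys passed for 5445 genes (27.9%), the response of WT kidneys for 2726 genes (14.0%) and the mean of both for 7505 genes (38.5%). In KO 2996 genes rose (15.4%) and 2449 fell (12.6%), and in WT 1684 rose (8.63%) and 1042 fell (5.34%); the counts of list members below are to be read against these shares.

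At the thresholds the study used for its own array comparisons, an unadjusted p under 0.01 with a difference over 2-fold, 473 genes were counted (2.43%). Of these, 271 had a higher difference between the responses (1.39%) and 202 a lower one (1.04%). These genes are described below as a list that was not corrected for the number of genes tested. Counts of gene list members at these thresholds are to be read against the shares of 1.39% and 1.04%. The gene lists were chosen with earlier results of these data known, so such counts are descriptive. For 294 of the 473 the response was amplified in KO, for 14 it was damped and for 165 it was reversed. Of the 294 amplified responses, 162 were larger rises and 132 larger falls; both responses passed an adjusted p of 0.05 for 111 and the KO response alone for 183. Both responses passed for 2 of the 14 damped and for 2 of the 165 reversed genes. Of the other reversed genes, 102 passed in KO alone, 34 in WT alone and 27 in neither genotype, so for most of them the sign of 1 of the responses rests on a change that did not pass. A difference over 4-fold was found for 99 of the 473, of which 48 were higher and 51 lower.

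**Figure D1:**
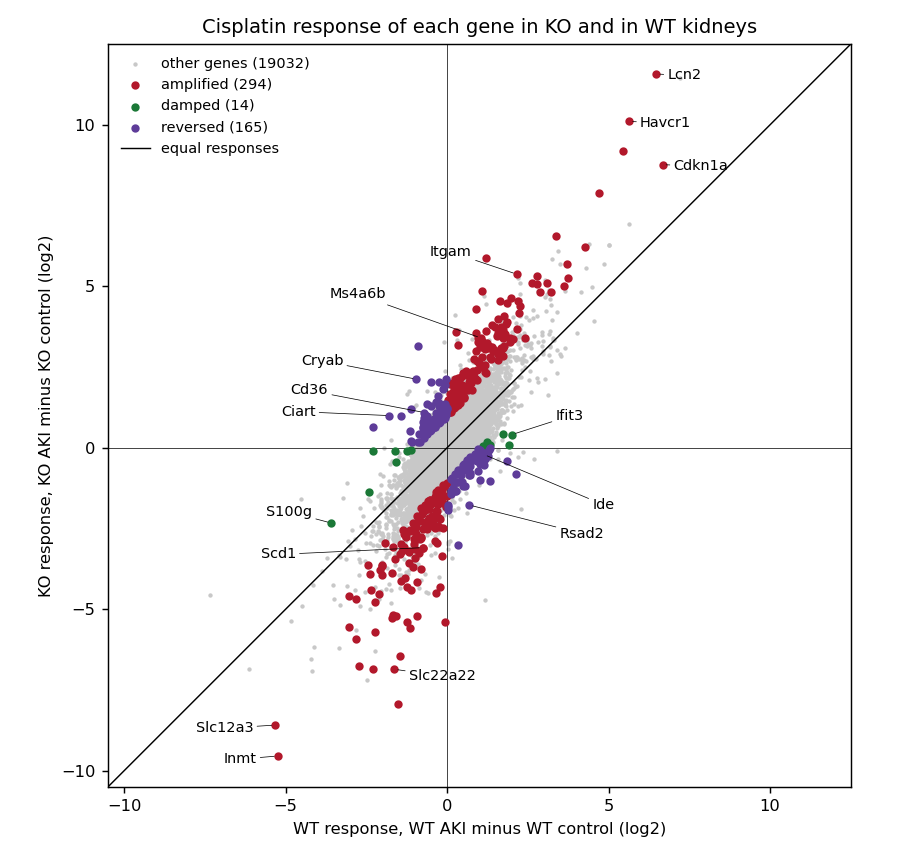
Log2 cisplatin response of each of the 19505 genes in KO kidneys (vertical) and in WT kidneys (horizontal), means of 3 arrays minus means of 3 arrays. Red, green and violet points are the 294 amplified, 14 damped and 165 reversed genes at an unadjusted p under 0.01 and over 2-fold. Grey points are all other genes, and the line marks equal responses. By definition every red point lies farther from 0 in KO than in WT. The red points reach from Inmt at -9.55 in KO and -5.24 in WT to Lcn2 at 11.57 in KO and 6.48 in WT.

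The excess in KO grew with the size of the response. Over all genes the median interaction was -0.00, and the median response was 0.06 in KO and 0.06 in WT. Genes were then chosen by the mean of both responses, a choice that favours neither genotype where the spread is equal, although it was larger in KO AKI. Of 4272 genes that rose, 64.9% rose more in KO, with a median excess of 0.18 on the log2 scale (0.11 without KO AKI replicate 2). Of 3233 genes that fell, 72.3% fell more in KO, with a median excess of 0.28 (0.16 without KO AKI replicate 2). Among rises with a mean response over 4 on the log2 scale, 28 of 29 were larger in KO, and among falls of that size 21 of 22 were. Small responses showed less of it: among rises with a mean response up to 1 on the log2 scale, 59.4% were larger in KO, with a median excess of 0.10. The choice of genes matters here. When genes were chosen by the WT response alone, 43.8% of rises and 46.9% of falls were larger in KO, but of rises between 2 and 4 on the log2 scale 90 of 121 were, and of falls in that range 59 of 88.

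Both parts of the interaction contributed. For 431 of the 473 genes (91.1%) the KO minus WT difference after cisplatin and that under saline had opposite signs, against 49.0% of all genes; a choice by a large interaction favours opposite signs, so no test was made. The difference under saline was the larger of both for 114 of the 473 (24.1%), against 41.5% of all genes. Havcr1 is an example with both: its KO minus WT difference was 2.04 after cisplatin and -2.43 under saline. For Slc12a3 these differences were -2.77 after cisplatin and 0.49 under saline, and for Ide, an insulin-degrading protease, 0.11 and 1.46.

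**Figure D2:**
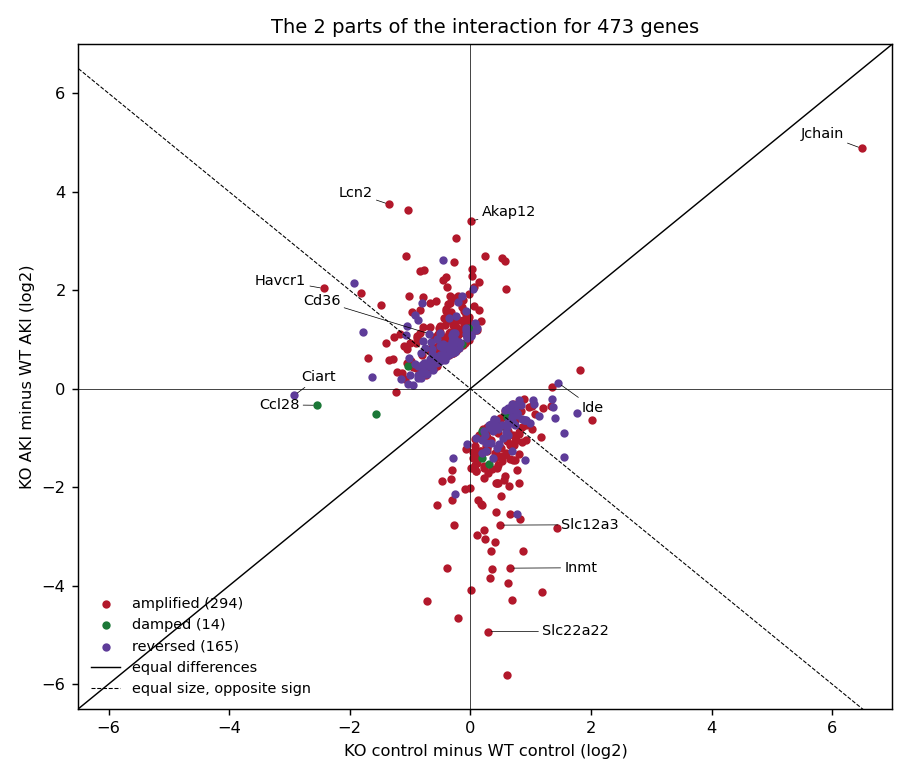
KO AKI minus WT AKI (vertical) against KO control minus WT control (horizontal), both on the log2 scale, for the 473 genes. The solid line marks equal differences, which give no interaction, and the dashed line differences of equal size and opposite sign: Slc22a22 (-4.93 after cisplatin, 0.29 under saline) differed after cisplatin, Ciart (-0.13 after cisplatin, -2.92 under saline) under saline, and Jchain was higher in KO under both.

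The classical markers of tubule injury rose in both genotypes and rose further in KO. Lcn2, which encodes the iron-siderophore binding protein NGAL that is secreted by injured tubules, gave signals of 17.05, 19.25 and 17.93 in KO AKI and of 6.31, 6.90 and 6.31 in KO control, against 15.30, 13.19 and 14.51 in WT AKI and 7.93, 7.23 and 8.41 in WT control. All KO AKI values lay above all WT AKI values, and all KO control values lay below all WT control values; 1 of the 3 KO control values was above background. Its response was 11.57 in KO and 6.48 in WT, a difference of 5.09 (standard error 0.78, adjusted p = 0.0478 from limma). Havcr1, which encodes the injury receptor KIM-1, gave 18.66, 19.51 and 18.75 in KO AKI and 9.25, 9.08 and 8.29 in KO control, against 17.73, 16.64 and 16.45 in WT AKI and 12.19, 10.01 and 11.72 in WT control. As for Lcn2, the KO kidneys were the lowest under saline and the highest after cisplatin. The response of Havcr1 was 10.10 in KO and 5.63 in WT, a difference of 4.47 (standard error 0.70, adjusted p = 0.0524).

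In the list of 23 measured tubule injury genes the response passed for 23 in KO and for 20 in WT, all upwards. The difference between the responses was higher for 22 of the 23, with a median of 1.94 (1.35 without KO AKI replicate 2), and 11 met an unadjusted p under 0.01 with over 2-fold, against 1.39% of all genes: Havcr1, Lcn2, Krt19, Clu, Cd44, Anxa2, Anxa3, S100a6, S100a10, S100a11 and Akap12. The list was chosen with earlier results of these data known, so these counts describe it and are not independent support. Clu, the secreted chaperone clusterin, had responses of 4.08 in KO and 1.76 in WT (difference 2.32, standard error 0.47, adjusted p = 0.132 from limma). Its KO minus WT difference was 1.06 after cisplatin and -1.26 under saline. Akap12, a scaffold protein for protein kinase A, had 9.14, 13.50 and 11.04 in KO AKI and 7.43, 6.67 and 6.70 in KO control, against 7.86, 7.36 and 8.25 in WT AKI and 6.54, 7.31 and 6.92 in WT control. The rise of Akap12 passed in KO alone (4.29 in KO and 0.90 in WT, adjusted p = 0.00095 and 0.444), and the adjusted p of the difference was 0.298. Vcam1 was the 1 listed gene with the larger rise in WT, at 2.87 in KO and 3.14 in WT, and without KO AKI replicate 2 its difference of -0.27 turned to 0.38.

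Some leukocyte genes rose further in KO. Itgam, the integrin CD11b of macrophages, monocytes and neutrophils, gave 9.88, 9.03 and 8.09 in KO AKI and 3.73, 3.80 and 3.35 in KO control, against 7.03, 6.61 and 6.21 in WT AKI and 4.51, 4.17 and 4.70 in WT control. No control array of either genotype was above background, so Itgam was at least 6.25-fold higher in KO AKI than in KO control. In WT AKI, 2 of 3 arrays were above background. Their mean over all 3 lay 1.30-fold above the background of WT control, which is not a firm bound. The fitted difference between the responses was 3.22 (standard error 0.51, adjusted p = 0.0524). Ms4a6b, of the membrane-spanning 4A family of leukocytes, gave 8.15, 7.93 and 8.27 in KO AKI and 4.64, 4.49 and 5.03 in KO control, against 6.78, 6.10 and 6.15 in WT AKI and 5.61, 5.08 and 5.19 in WT control. Ms4a6b rose at least 3.39-fold in KO. In WT AKI, 1 of 3 arrays was above background. The mean over all 3 lay 1.08-fold above the background of WT control, which is not a firm bound either. The fitted difference of Ms4a6b was 2.35 (standard error 0.34, adjusted p = 0.0414 from limma). With values under background raised to it, the difference of Ms4a6b was 1.48 with an adjusted p of 0.0158, and that of Itgam was 2.20 with an adjusted p of 0.203. Lgals3, galectin-3, which macrophages and injured epithelium make, had responses of 4.81 in KO and 2.88 in WT (difference 1.94, adjusted p = 0.0799 from limma). Its KO minus WT difference was 0.59 after cisplatin and -1.35 under saline, and its cisplatin groups overlapped. Of its 3 KO control values, 1 was above background.

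Of 19 measured macrophage and monocyte genes, 16 had a higher difference between the responses, with a median of 0.62 (0.79 without KO AKI replicate 2), but Itgam alone met an unadjusted p under 0.01 with over 2-fold. The median was 0.36 without KO AKI replicate 1, and relative to the control mean of the same genotype the list stood at 2.06, 0.64 and 1.14 in the KO AKI kidneys and at 1.0, 0.08 and 0.18 in the WT AKI kidneys, which overlap. The rise passed for 11 of them in KO and for 4 in WT, against 15.4% of all genes in KO and 8.63% in WT. Adgre1, the F4/80 antigen of macrophages, had responses of 0.49 in KO and 0.40 in WT, neither of which passed, and lay above background on 3 of 12 arrays. None of 12 neutrophil genes lay above background in a group; the rise passed for 4 of them in KO and for 2 in WT, and S100a9, a calcium binding protein of neutrophils, and Csf3r, the receptor of their growth factor, met the thresholds upwards (fitted differences 2.16 and 1.02). Of 11 T cell genes 1 lay above background in a group.

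Chemokines went both ways, and most cytokine genes had a somewhat higher difference. Of 25 chemokine genes, 14 had a higher and 11 a lower difference between the responses (median 0.11, and 0.02 and 0.07 without KO AKI replicate 1 and 2). The thresholds were met upwards by 4 of the 25, against 1.39% of all genes: Ccl6, Ccl9, Cxcl1 and Ccl28, the last through a smaller fall. Ccl9 gave 10.33, 9.25 and 8.93 in KO AKI and 5.32, 5.62 and 5.60 in KO control, against 8.31, 8.03 and 6.95 in WT AKI and 6.20, 5.58 and 6.76 in WT control. Its KO control arrays were not above background, so the rise in KO was at least 8.87-fold, and the fitted difference was 2.41 (standard error 0.57, adjusted p = 0.194). Of 21 cytokine and adhesion genes, 19 had a higher difference, with a median of 0.34 (0.20 without KO AKI replicate 2), and 6 of the 21 lay above background in a group. Il1rn, the antagonist of the interleukin-1 receptor, rose at least 5.97-fold in KO and at least 1.56-fold in WT, with a fitted difference of 2.0 (adjusted p = 0.245). The feedback genes of NF-kB had a median difference of 0.23 (-0.14 without KO AKI replicate 2), while their median response was 1.09 in KO and 1.41 in WT, which run in opposite directions.

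In the list of 18 complement and acute phase genes the rise passed for 13 in KO and for 6 in WT, and the median difference between the responses was 1.34 (0.61 without KO AKI replicate 2). Relative to the control mean of the same genotype, the list stood at 1.25, 2.71 and 2.33 in KO AKI. In WT AKI it stood at 1.19, 0.84 and 1.33, so the groups overlapped. Of these 18 genes, 6 met the thresholds upwards, against 1.39% of all genes: Cp, Fga, Fgg, Saa3, Serpina3n and Lrg1, with Saa3 above background on no array. Cp, the copper-carrying ferroxidase ceruloplasmin, gave 15.94, 16.02 and 15.72 in KO AKI and 12.99, 12.47 and 12.81 in KO control, against 14.56, 14.29 and 14.76 in WT AKI and 12.91, 12.59 and 12.81 in WT control. The saline groups overlapped and the cisplatin groups did not, and the difference was 1.37 (standard error 0.29, adjusted p = 0.136). The fibrinogen chain genes Fga and Fgg had differences of 3.19 and 3.74, with adjusted p = 0.352 and 0.327. In both, WT control replicate 2 was far above the other WT control kidneys (13.82 against 10.12 and 10.10 for Fga), and without it the differences were 1.95 and 2.35. Serpina3n, a serine protease inhibitor of the acute phase, gave 7.28, 12.06 and 8.75 in KO AKI, and its difference of 3.78 was 2.43 without KO AKI replicate 2.

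DNA damage and antioxidant genes rose in both genotypes with a moderate excess in KO. Cdkn1a, the p53 target that encodes the cell cycle inhibitor p21, gave 13.58, 15.59 and 14.23 in KO AKI and 5.69, 5.55 and 5.88 in KO control, against 12.81, 12.73 and 12.62 in WT AKI and 6.49, 5.94 and 5.71 in WT control. It was at least 277-fold higher in KO AKI than in KO control, where it was not above background, and 102-fold higher in WT AKI than in WT control, where 1 of 3 arrays was above background. The fitted difference between the responses was 2.09 (standard error 0.54, adjusted p = 0.243). Of 23 p53 targets, the rise passed for 17 in KO and for 16 in WT, against 15.4% of all genes in KO and 8.63% in WT. The median difference was 0.66 (0.51 without KO AKI replicate 2), and 4 of the 23, Cdkn1a, Eda2r, Tnfrsf10b and Gadd45a, met the thresholds upwards, against 1.39% of all genes. Gadd45a, a growth arrest gene, had responses of 2.64 in KO and 0.99 in WT (adjusted p = 0.178 for the difference). Of 21 NRF2 targets, which make glutathione and clear reactive compounds, 18 rose in KO and 12 in WT, with a median difference of 0.96 (0.52 without KO AKI replicate 2). Relative to the control mean of the same genotype, this list stood at 1.76, 3.05 and 2.96 in KO AKI. In WT AKI it stood at 1.51, 1.54 and 2.06, so the groups overlapped. Gclc, the catalytic subunit of glutamate-cysteine ligase, had responses of 2.90 in KO and 1.58 in WT, and Ephx1, microsomal epoxide hydrolase, had 4.83 in KO and 3.22 in WT (adjusted p = 0.284 and 0.245 for the differences).

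All 22 measured cell cycle genes had a higher difference between the responses, with a median of 0.87 (1.16 without KO AKI replicate 2); the rise passed for 18 in KO and for 5 in WT, and 8 of the 22 lay above background in a group. The median KO minus WT difference of the list was 0.43 after cisplatin and -0.41 under saline. The thresholds were met upwards by 5 of the 22, against 1.39% of all genes. Of these 5, Ccnb2, Mcm4, Mcm5 and Rrm2 differed more under saline and Cdc20 more after cisplatin. Rrm2, a subunit of ribonucleotide reductase, rose at least 2.77-fold in KO (fitted difference 1.5, adjusted p = 0.245). Kpna2, a nuclear import receptor, gave 10.37, 10.60 and 10.60 in KO AKI and 9.05, 9.03 and 8.77 in KO control, against 9.49, 9.39 and 9.65 in WT AKI and 9.39, 9.46 and 9.32 in WT control. Its rise of 1.57 passed in KO and its change of 0.12 did not pass in WT, with an adjusted p of 0.0691 for the difference. Ctps, which encodes CTP synthase, rose by 3.66 in KO and by 1.74 in WT (difference 1.92, standard error 0.30, adjusted p = 0.0524). Mybl1, a MYB family transcription factor, Socs2, a feedback inhibitor of cytokine signals, and Anxa4, a calcium-dependent membrane binding protein, had fitted differences of 2.63, 1.33 and 1.48 (adjusted p = 0.0693, 0.0869 and 0.132); Mybl1 was above background on no control array. Alas1, the first enzyme of heme synthesis, rose by 1.97 in KO and had a change of 0.08 in WT (adjusted p = 0.127 for the difference); its KO minus WT difference under saline was -1.28.

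Strong falls were amplified too. Slc12a3, the thiazide-sensitive sodium chloride cotransporter of the distal convoluted tubule, gave 8.88, 7.40 and 8.07 in KO AKI and 16.84, 16.73 and 16.54 in KO control, against 10.57, 11.07 and 11.02 in WT AKI and 16.10, 16.38 and 16.15 in WT control. The cisplatin groups did not overlap, and the KO values were the higher ones under saline and the lower ones after cisplatin. The response was -8.59 in KO and -5.33 in WT, and the difference of -3.26 had the smallest p of all genes (standard error 0.42, adjusted p = 0.0414). Inmt, indolethylamine N-methyltransferase, gave 6.66, 5.11 and 4.51 in KO AKI and 14.84, 15.09 and 14.99 in KO control, against 8.02, 10.00 and 9.20 in WT AKI and 14.04, 14.68 and 14.22 in WT control. One of the 3 KO AKI values of Inmt was above background, and the difference of -4.30 had a standard error of 0.71 and an adjusted p of 0.0616.

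Other genes of the distal convoluted and connecting tubule did not share 1 direction. Calb1, the calcium buffer calbindin, fell by 6.86 in KO and by 6.13 in WT (difference -0.73, adjusted p = 0.743), and Trpv5, the calcium entry channel of this segment, had changes of -1.71 in KO and -0.53 in WT, neither of which passed. S100g, the small calcium binding protein calbindin-D9k, fell less in KO. It gave 12.79, 13.83 and 14.25 in KO AKI and 16.06, 15.86 and 15.95 in KO control, against 12.43, 12.44 and 12.30 in WT AKI and 15.95, 16.04 and 15.95 in WT control, so the saline groups overlapped and every KO AKI value lay above every WT AKI value. It fell by 2.33 in KO and fell by 3.59 in WT, and the difference was 1.26 (standard error 0.41, adjusted p = 0.336). Among the 11 distal convoluted and connecting tubule genes 4 had a higher and 7 a lower difference. The median of these differences was -0.72 (-0.00 without KO AKI replicate 2), while the median response was -2.43 in KO and -2.68 in WT, which run in opposite directions.

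Proximal tubule genes fell in KO more than in WT, to an extent that differed between the 3 KO AKI kidneys. Of 29 measured transporters and endocytic receptors, 28 had a lower difference between the responses; the fall passed for 22 in KO and for 4 in WT, and the median response was -2.43 in KO and -0.53 in WT. Relative to the mean of KO control, the median of these genes was -0.92, -3.98 and -1.85 in KO AKI replicates 1, 2 and 3, and relative to WT control it was -0.79, -0.42 and -0.59 in WT AKI replicates 1, 2 and 3. KO AKI replicate 1 was thus close to the WT AKI kidneys and replicate 2 far below them. The median difference was -1.55 with all arrays and -0.75 without KO AKI replicate 2, where 23 of the 29 were lower. The thresholds were met by 5 of them, Slc34a3, Slc5a2, Slc22a22, Slc7a13 and Slc6a19, against 1.04% of all genes. Slc22a22, a prostaglandin transporter, gave 10.28, 4.17 and 7.91 in KO AKI and 14.38, 14.09 and 14.47 in KO control, against 12.10, 12.77 and 12.30 in WT AKI and 14.21, 13.88 and 13.99 in WT control. Its difference of -5.22 (standard error 1.40, adjusted p = 0.245) was -3.58 without KO AKI replicate 2. The glucose transporter Slc5a2 (SGLT2) and the amino acid transporter Slc7a13 had differences of -3.63 and -6.42, which were -2.37 and -4.44 without that array. For Slc6a19, the main carrier of neutral amino acids, the difference was -1.71 and -2.08 without that array.

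Metabolic enzymes of the proximal tubule were lower in all 3 KO AKI kidneys. The median of 18 enzymes, relative to the control mean of the same genotype, was -1.98, -4.43 and -2.68 in KO AKI replicates 1, 2 and 3 and -0.96, -0.77 and -0.93 in WT AKI replicates 1, 2 and 3, and the groups did not overlap. The fall passed for 15 of the 18 in KO and for 6 in WT, 17 had a lower difference, and the median difference was -1.72 (-1.41 without KO AKI replicate 2). Hao2, a peroxisomal hydroxy acid oxidase, gave 14.76, 7.14 and 11.74 in KO AKI and 17.03, 16.95 and 15.87 in KO control, against 15.04, 15.35 and 15.66 in WT AKI and 15.59, 15.26 and 15.44 in WT control, so it fell in KO (-5.40) and had a response of -0.08 in WT. Its difference of -5.33 had an adjusted p of 0.343 and was -3.29 without KO AKI replicate 2. Miox, which opens the ring of myo-inositol, and the cytochrome P450 Cyp4b1 had differences of -3.53 and -1.90 (adjusted p = 0.343 and 0.144). Other enzymes among the strongest differences were Sugct, a mitochondrial CoA transferase (-2.05), Bdh1, which interconverts the ketone bodies (-2.52), and Papss2, which makes the sulfate donor of the cell (-2.09), with adjusted p = 0.0616, 0.0691 and 0.0693. Azgp1, a secreted zinc-binding glycoprotein, had a difference of -2.15 (adjusted p = 0.0616 from limma). Its KO minus WT difference was -0.98 after cisplatin and 1.17 under saline.

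Of 13 brush border enzymes, 11 had a lower difference, with a median of -1.08 (-0.48 without KO AKI replicate 2). Among them Mep1b and Car4 met the thresholds downwards, against 1.04% of all genes. Relative to the control mean of the same genotype, the list stood at -0.19 in KO AKI replicate 1. The WT AKI arrays stood at -0.46, -0.20 and -0.30, so the groups overlapped. Mep1b, a subunit of the metalloprotease meprin, gave 10.75, 5.66 and 7.87 in KO AKI and 13.87, 13.65 and 13.52 in KO control, against 12.64, 12.89 and 12.71 in WT AKI and 13.86, 14.06 and 13.74 in WT control. All 10 thick ascending limb genes had a lower difference (median -1.30). Without KO AKI replicate 2 the median was -0.59, and 2 of the 10 had a higher difference. Relative to the same genotype's control mean, the list stood at -1.08 in KO AKI replicate 1 and at -1.12 in WT AKI replicate 1. The groups thus overlapped. Egf, the growth factor made there, met the thresholds at -3.10 and was -1.94 without KO AKI replicate 2. Umod had responses of -0.18 in KO and -0.03 in WT, neither of which passed. Principal cells of the collecting duct gave a median of -0.02 (0.36 without KO AKI replicate 2), with Aqp4, a water channel, at -2.73 (adjusted p = 0.178). Of 11 endothelial genes, 10 had a lower difference (median -0.56, and -0.81 without KO AKI replicate 2). Kdr, Emcn and Tek met the thresholds at -1.32, -1.21 and -1.37, against 1.04% of all genes. Their KO minus WT differences were 1.35, 0.81 and 1.05 under saline and 0.03, -0.39 and -0.32 after cisplatin.

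**Figure D3:**
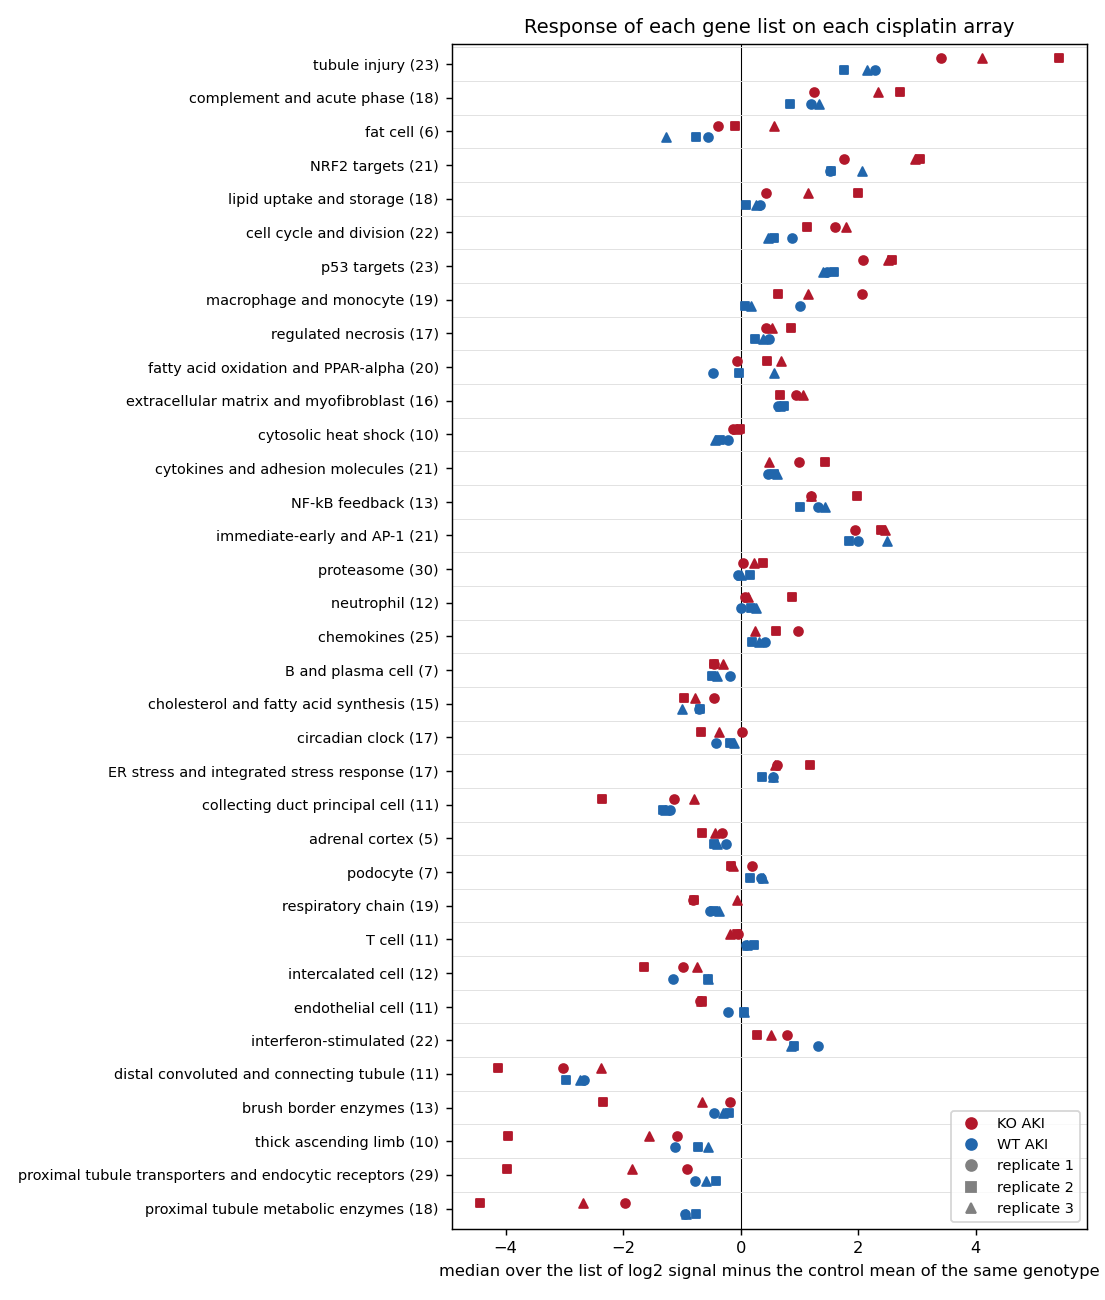
Median over the genes of each list of the log2 signal on a cisplatin array minus the mean of the control group of the same genotype, with KO AKI in red above WT AKI in blue and the 3 replicates as circle, square and triangle; the number of measured genes is in parentheses, and a red blood cell list with 2 measured genes is not drawn. Lists are ordered by the median difference between the responses: tubule injury lies highest (1.94), proximal tubule metabolic enzymes lowest (-1.72), and the square of KO AKI replicate 2 lies farthest out for most tubule lists.

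Interferon-stimulated genes ran the other way, with a smaller rise in KO. Of 22 measured genes, 20 had a lower difference, the rise passed for 6 in KO and for 13 in WT, against 15.4% of all genes in KO and 8.63% in WT, and the median difference was -0.69 (-0.62 without KO AKI replicate 2). Relative to the control mean of the same genotype, the list stood at 0.79, 0.27 and 0.52 in KO AKI and at 1.31, 0.90 and 0.86 in WT AKI, which did not overlap. Ifit3, an antiviral protein of the tetratricopeptide family, gave 10.34, 9.22 and 10.15 in KO AKI and 9.16, 9.37 and 9.96 in KO control, against 11.82, 11.21 and 10.89 in WT AKI and 9.27, 9.52 and 9.10 in WT control. It rose by 2.01 in WT and had a change of 0.41 in KO that did not pass, a difference of -1.60 (standard error 0.45, adjusted p = 0.255). Xaf1, an interferon-induced pro-apoptotic gene, rose at least 1.94-fold in WT and had a change of 0.42 in KO that did not pass (fitted difference -1.32, adjusted p = 0.287). Rsad2, the antiviral enzyme viperin, fell by 1.78 in KO and had a change of 0.68 in WT, and Cmpk2, a mitochondrial nucleotide kinase encoded beside it, fell by 1.33 in KO and had a change of 0.11 in WT. The KO minus WT difference of Rsad2 was -0.90 after cisplatin and 1.56 under saline, and that of Cmpk2 was -0.72 after cisplatin and 0.72 under saline (adjusted p = 0.132 and 0.34 for the interactions).

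Besides S100g, Ifit3 and Xaf1, the damped genes above background in a group were Ccl28, Rnf24, Casp6 and Ccdc22. Ccl28, a chemokine of mucosal epithelia, gave 7.68, 7.73 and 8.20 in KO AKI and 7.86, 8.45 and 7.56 in KO control, against 8.87, 7.90 and 7.86 in WT AKI and 10.85, 9.37 and 11.28 in WT control. It fell by 2.30 in WT and had a change of -0.09 in KO, where it was already low under saline (difference 2.21, standard error 0.60, adjusted p = 0.245). Rnf24, a RING finger protein, fell in both genotypes, by 1.37 in KO and by 2.42 in WT (difference 1.05, adjusted p = 0.327). Casp6, an executioner caspase, fell by 1.59 in WT and had a change of -0.44 in KO (difference 1.15, adjusted p = 0.352).

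Several reversed genes were above background on all 12 arrays. Cd36, the scavenger receptor that takes up fatty acids, gave 14.69, 16.04 and 15.66 in KO AKI and 14.44, 14.03 and 14.66 in KO control, against 14.72, 14.44 and 13.89 in WT AKI and 15.22, 14.68 and 15.27 in WT control. It rose by 1.09 in KO (adjusted p = 0.0255) and had a change of -0.71 in WT that did not pass (adjusted p = 0.169), and the difference was 1.80 (standard error 0.47, adjusted p = 0.243). Bst1, an ADP-ribosyl cyclase of the cell surface, gave 8.63, 10.06 and 9.14 in KO AKI and 7.98, 7.87 and 7.93 in KO control, against 7.20, 7.34 and 7.21 in WT AKI and 7.82, 7.97 and 7.82 in WT control. The saline groups overlapped, the KO AKI values lay above them and the WT AKI values below them (difference 1.98, standard error 0.39, adjusted p = 0.132). Car5b, a mitochondrial carbonic anhydrase, fell by 1.15 in WT and had a change of 0.51 in KO (adjusted p = 0.132 for the difference). Cryab, a small heat shock protein, gave 12.38, 16.20 and 13.54 in KO AKI, and its difference of 3.07 was 1.99 without KO AKI replicate 2.

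For other reversed genes the KO minus WT difference was larger under saline than after cisplatin. Ide gave 14.19, 14.14 and 14.05 in KO AKI and 14.48, 14.16 and 14.37 in KO control, against 13.98, 14.03 and 14.02 in WT AKI and 12.76, 12.90 and 12.97 in WT control. Only the WT control values were low, so Ide rose by 1.14 in WT and had a change of -0.21 in KO (difference -1.35, standard error 0.24, adjusted p = 0.0691). Ciart, a repressor of the circadian clock, was above background in WT control alone, at 6.65, 7.13 and 7.67, and fell at least 1.73-fold in WT; its fitted difference was 2.78 (adjusted p = 0.0799), and 0.83 with values under background raised to it. Mfsd2a, a carrier of lysophospholipids, fell at least 2.26-fold in WT, and 1 of its 3 KO AKI values was above background (fitted difference 2.93, adjusted p = 0.132). Slc4a9, a bicarbonate transporter of intercalated cells, rose by 1.33 in WT and had a change of -0.02 in KO (adjusted p = 0.243 for the difference), with the larger KO minus WT difference after cisplatin (-1.10, against 0.26 under saline).

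**Figure D4:**
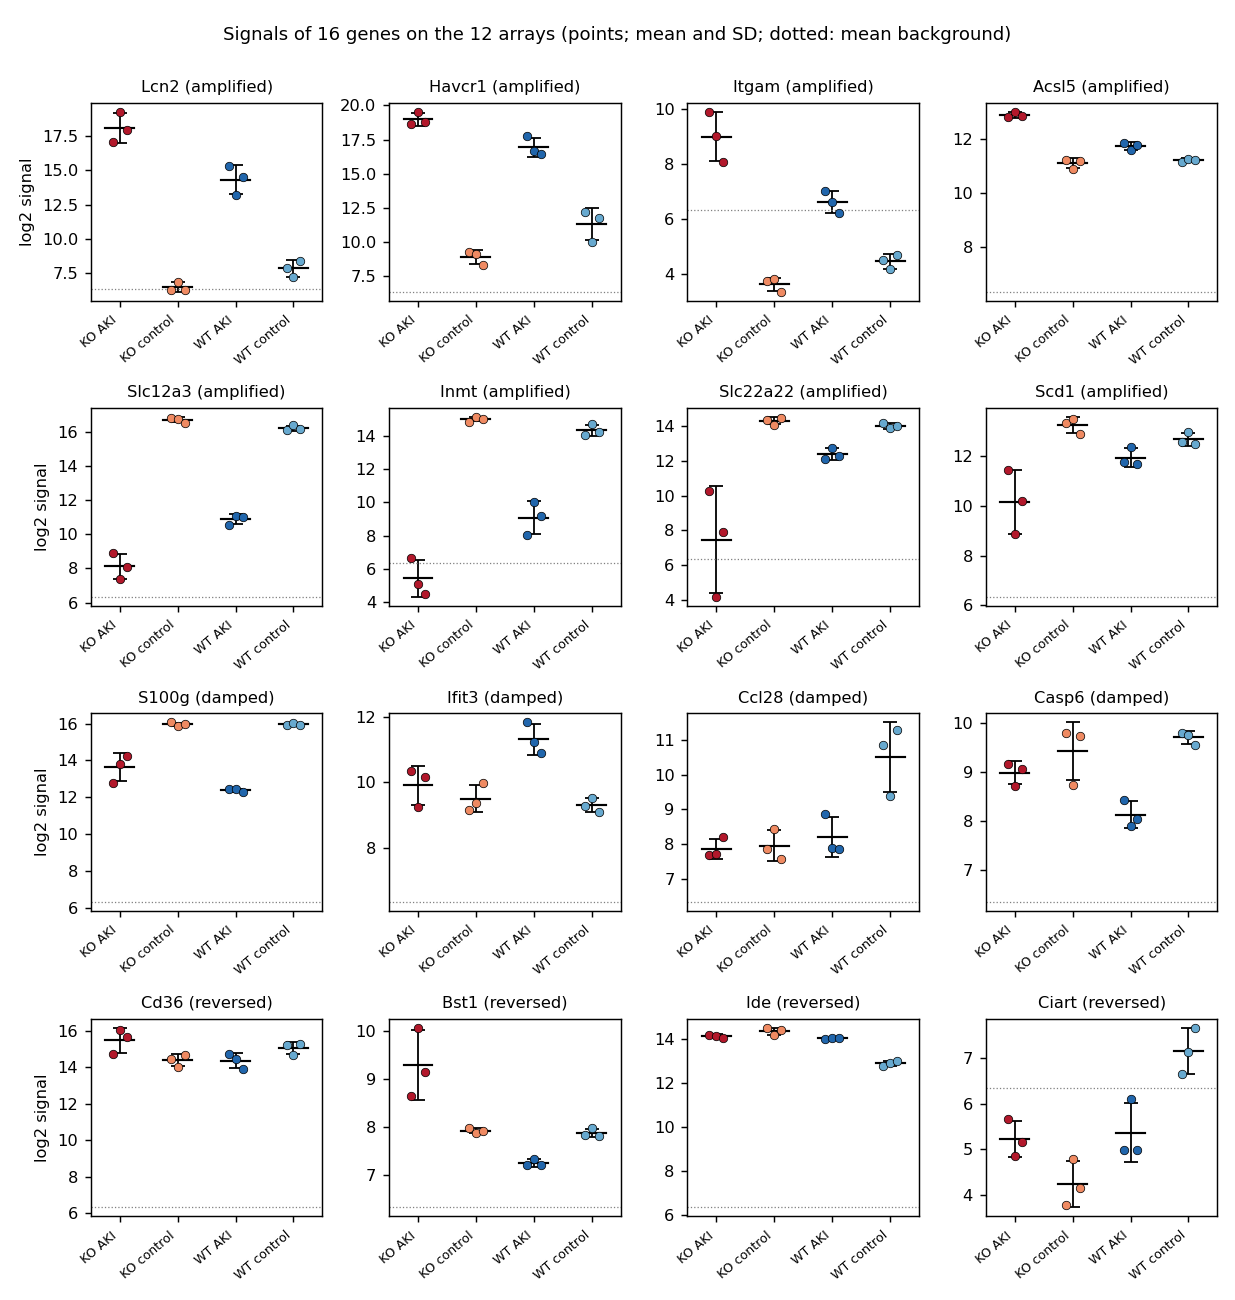
Log2 signals of 16 genes on each of the 12 arrays, with groups from left to right KO AKI, KO control, WT AKI and WT control; points are arrays, bars the mean and SD of 3, and the dotted line the mean background of the arrays. The upper 2 rows show amplified rises and falls, the third row damped genes and the lowest row reversed genes, where the WT control values alone stand apart for Ide and Ciart.

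Other lipid genes gave both larger and similar responses in KO. Acsl4, a ligase that activates arachidonic acid, gave 13.27, 14.88 and 14.77 in KO AKI and 10.88, 10.85 and 10.98 in KO control, against 12.65, 12.37 and 13.18 in WT AKI and 10.91, 11.11 and 11.01 in WT control. It rose by 3.40 in KO and by 1.72 in WT (difference 1.68, standard error 0.49, adjusted p = 0.277). Acsl5, another acyl-CoA ligase, gave 12.79, 12.99 and 12.84 in KO AKI and 11.23, 10.88 and 11.19 in KO control, against 11.85, 11.58 and 11.78 in WT AKI and 11.14, 11.26 and 11.23 in WT control, with a difference of 1.24 (standard error 0.25, adjusted p = 0.132). For both genes the saline groups overlapped and the KO AKI values lay above all WT AKI values. Lpl, which releases fatty acids from lipoproteins, fell by 2.88 in KO and by 3.08 in WT, and Apob rose by 1.56 in KO and by 1.37 in WT; their differences were 0.20 and 0.19, each with a standard error of 0.36 (adjusted p = 0.894 and 0.902). Fabp3, a fatty acid carrier, fell by 3.95 in KO and by 2.0 in WT (adjusted p = 0.298 for the difference). Of 18 lipid uptake and storage genes, 16 had a higher difference, with a median of 0.94 (0.48 without KO AKI replicate 2). The thresholds were met upwards by 5 of the 18, against 1.39% of all genes: Cd36 as a reversed and Acsl4, Acsl5, Msr1 and Angptl4 as amplified responses. Fabp3 met them downwards. The 6 measured fat cell markers had a median difference of 1.31 (5 of 6 higher, and 1.29 without KO AKI replicate 2), with a median response of -0.01 in KO and -0.79 in WT. Their median KO minus WT difference was -0.21 after cisplatin and -1.26 under saline. Of the 6, 1 lay above background in a group, and the part of these markers in the lipid genes was not tested. Under saline Cd36, Angptl4 and Lpl also had KO minus WT differences below 0 (-0.68, -1.40 and -1.48). Of 15 genes of cholesterol and fatty acid synthesis, Scd1, the stearoyl-CoA desaturase, and Cyp51, a sterol demethylase, met the thresholds downwards (-2.35 and -1.63), against 1.04% of all genes. The median of that list was 0.03 (0.13 without KO AKI replicate 2). Fatty acid oxidation genes had a median of 0.39 (0.62 and 0.13 without KO AKI replicate 1 and 2), and none met the thresholds.

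Several lists had medians near that of all genes. Immediate-early and AP-1 genes rose strongly in both, with median responses of 2.15 in KO and 1.88 in WT, and none of 21 met the thresholds (median difference 0.21, and 0.38 and 0.12 without KO AKI replicate 1 and 2). The medians of the differences were 0.00 for ER stress genes, -0.18 for respiratory chain subunits and 0.16 for proteasome subunits, against -0.00 for all genes. Without KO AKI replicate 2 these lists gave -0.12, -0.05 and 0.09. Of 17 circadian clock genes 9 had a higher and 8 a lower difference, and 3 met the thresholds in opposite directions, Per1 (1.55) and Ciart upwards and Npas2 (-1.44) downwards. All 3 differed more under saline than after cisplatin, with KO minus WT differences of 0.33, -0.13 and 0.38 after cisplatin and of -1.22, -2.92 and 1.83 under saline for Per1, Ciart and Npas2. Of genes the study names, Cdkl1, a cyclin-dependent kinase-like gene, fell by 3.87 in KO and by 1.70 in WT (difference -2.17, adjusted p = 0.327, and -1.39 without KO AKI replicate 2). Bmp5, a bone morphogenetic protein, was not above background on any array, and Cdkl3 had responses of 0.01 in KO and 0.05 in WT. The paper describes both as lower in KO AKI than in WT AKI, which is another comparison. The KO minus WT difference of Cdkl3 was -0.81 after cisplatin and -0.77 under saline. That of Bmp5 was -0.93 after cisplatin and -0.06 under saline, read within background. Jchain, the joining chain of secreted antibodies, had a KO minus WT difference of 4.88 after cisplatin and of 6.49 under saline, so its fall of 2.19 in KO (-0.57 in WT, difference -1.61, adjusted p = 0.314) was small beside the genotype difference itself.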

How the data were processed

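Each of 12 kidneys was read on its own Clariom S array. The log2 signals were deposited by the authors as 1 value for a probe set on an array. The submitters' processing notes name Transcriptome Analysis Console; its version, the background correction and the normalisation are not given in the sources used here. The deposited log2 values were not normalised again. They carry no counts, so the number of arrays limits the precision. Array medians ranged from 5.73 to 5.96, and 14 probe sets sat at the top value of 19.9. Without array controls 22206 of 28846 entries remained, 19572 with 1 gene symbol and 2634 with none. The brightest probe set was kept for the 55 genes that had several, which left 19505 genes.

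Group means were fitted to all 12 arrays with lmFit and eBayes of limma 3.58.1 in R 4.3.3 (8 residual and 5.60 prior degrees of freedom), p-values were adjusted by Benjamini-Hochberg over all genes, and the fit was checked on simulated data. Permuting 3 arrays against 3 cannot reach an exact p under 0.1, so no such test was used. Errors are standard errors of log2 differences. Where no array of a group was above background, the fold is a bound: the bright group's mean is set against the dim group's, with values under background raised to it. Such a bound is not firm where the bright group also had arrays under background. No bound is given for the interaction.

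The 36 gene lists, with 568 of 623 genes measured, are described by counts and medians beside those of all genes. The members, the lists and the rule for named genes were chosen with earlier results of these data known. The rule took the 15 smallest interaction p-values in each direction among genes above background in a group, Apobec1 and genes the study names, up to 3 members of each list, and 10 genes each for responses larger in WT and for opposite responses. Predicted, olfactory, vomeronasal and small RNA genes were excluded from its ranked parts. The text prints part of these genes; Vmn1r20, Vmn1r19, Slc22a27, Xpnpep2 and further list members that met the thresholds were named after their values were seen. The alternatives were quantile normalisation, median centring, array weights for each array or group, trend and robust eBayes, no moderation, a filter on dim genes, the mean of a gene's probe sets, a replicate block, leaving out each array and, added after the values were seen, raising values under background to it, choosing responding genes by 1 genotype and fitting the probe sets without a symbol. The labels give separate kidney samples and no litter, cage or batch. Sequences were not used here.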

Additional observations from a re-analysis of the deposited data

Results flagged for a closer look

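The 6 genes whose cisplatin responses differed between KO and WT at an adjusted p under 0.05 in limma are listed here with their values. Slc12a3 had a difference between the responses of -3.26 (standard error 0.42), with an adjusted p between 0.000287 and 0.174 when 1 array was left out. Lcn2 had a difference of 5.09, between 4.51 and 5.60 without 1 array, and an adjusted p of 0.0943 with values under background raised to it. Ms4a6b had a difference of 2.35, between 2.19 and 2.57 without 1 array. Vmn1r20, a vomeronasal receptor gene, had a difference of -4.16: its signals were 6.03, 3.88 and 4.85 in KO AKI, all under background, and 10.20, 10.07 and 10.68 in KO control, against 7.92, 8.10 and 8.62 in WT AKI and 9.20, 9.69 and 9.45 in WT control. Vmn1r19, of the same gene family, had a difference of -4.26 (adjusted p = 0.0691); which transcript gives these signals is uncertain, and whether both probe sets read the same RNA was not tested. Slc22a27 had a difference of -2.35 and Xpnpep2 a difference of -1.94, with no array above background for either. Raising values under background to it leaves only the background of each array for such genes. The adjusted p of 0.51 that limma then gave for both is the same for any such gene and does not test them.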

How the results depend on the processing

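Against 6 genes called for the difference between the responses, the count was 2 after quantile normalisation, 63 with weights for each array, 27 with weights for each group, 10 with trend and robust eBayes, 0 without moderation, 3 among genes above background, 11 with values under background raised to it and 0 to 337 without 1 array. Under the study's thresholds the 473 genes became 239 without moderation, 259 with raised values and 367 to 1120 without 1 array. The 294 amplified genes became 135, 176 and 196 to 764 under these settings. The 14 damped genes were 8 after quantile normalisation, 6 without moderation, 6 above background, 6 with raised values and 8 to 19 without 1 array. The 165 reversed genes were 98, 94, 77 and 145 to 338 under the last 4 of these settings.

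The replicate block left 0 calls and 457 genes at the study's thresholds. Arrays of the same number did not deviate together (r of -0.114 to 0.0878 over 18 pairs), so the numbers do not pair the kidneys. Without 1 array the difference ran from -0.17 to 0.40 for Adgre1 and from -0.33 to 0.026 for Umod. It ran from -1.83 to 0.026 for Trpv5 and from -0.049 to 0.48 for Apob. For Vcam1 it ran from -1.27 to 0.41. For Cdkl3 it ran from -0.32 to 0.13 and was 0.16 with weights for each array. With raised values it was -0.091 for both Saa3 and Csf3r, the value that setting gives any gene under background on every array. No other printed gene of those followed through the alternatives changed its sign. Of the list medians under alternatives, 744 stayed within 1 SD of the KO AKI arrays and 46 moved beyond it. The causes were not tested. Genes near background, such as Slc22a27 and Xpnpep2, are limited by signal.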

Other observations

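Among 2634 probe sets without a gene symbol, 963 lay above background in a group. In the same model, with adjustment over these probe sets, 1 had an adjusted p under 0.05 for the difference between the responses (0.0483), 263 had an unadjusted p under 0.05 and 53 met an unadjusted p under 0.01 with over 2-fold.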
